A study of Mus musculus with 6 samples.

Results

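The 9 genes described here are Cx3cr1, P2ry12, Tmem119, Csf1r, Trem2, Tyrobp, C1qa, C1qb and C1qc, the receptors and surface proteins that mark microglia and the genes of the complement protein C1q. They were chosen by name, with no filter on their counts but with earlier results of these data known. All 9 were found among the 23284 genes of the deposited count table. RNA sequencing was done on prefrontal cortex of wild-type C57BL/6 mice aged 8 to 10 weeks, with 3 single-housed and 3 group-housed libraries taken after 6 days of housing. No allele, transgene or drug is named for either group, and the labels do not say whether each library came from a separate mouse, so p-values measure only the spread between these libraries. The series concerns interferon-gamma and social behavior, and here the comparison asks whether housing alone went with other levels of microglial and C1q transcripts.

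Microglia are the resident macrophages of the brain. They depend on signalling through the receptor CSF1R, survey neurons and synapses through receptors such as CX3CR1 and P2RY12, and sense lipids and debris through TREM2, which signals through the adaptor TYROBP. C1q is the recognition molecule of the classical complement pathway, assembled from A, B and C chains, and in the brain it is made chiefly by microglia and is known to tag synapses for removal in the developing visual system of mice.

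The libraries held 32902303, 33176093 and 33428512 counts in single-housed mice, against 25858355, 30931952 and 32088512 in group-housed mice. After a filter on low counts, 15258 genes were tested, all 9 genes among them. Levels are given as CPM (counts scaled to the library's TMM-adjusted total), and levels are compared between genes only as RPKM, which divides CPM by the deposited gene length in kilobases. Some libraries stood apart in markers of other cells. Summed CPM of 9 striatal markers was 1785, 849 and 264 in single-housed replicates 1 to 3, against 820, 298 and 336 in group-housed replicates 1 to 3. Summed CPM of 7 oligodendrocyte markers was 4215, 4014 and 1995 in single-housed libraries, against 5391, 1968 and 3109 in group-housed libraries. Single-housed replicates 1 and 2 and group-housed replicate 1 were thus the highest for both lists. Markers of neurons (7 genes) and astrocytes (7 genes) varied less, with summed CPM of 10906 to 11700 and 3860 to 4182 in single-housed libraries, against 10906 to 12219 and 3995 to 4122 in group-housed libraries.

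In the deposited mm9 coordinates the C1q genes lie side by side on the minus strand of chromosome 4, with C1qb at chr4:136436061-136442092, C1qc at chr4:136445717-136448829 and C1qa at chr4:136451831-136454759. Together they span 18699 bases, with gaps of 3624 and 3001 bases and 0 other genes of the table between them. Each is counted over 3 exon blocks. The identity genes lie apart, Cx3cr1 at chr9:119957811-119977400, Tmem119 at chr5:114243738-114250361 and P2ry12 at chr3:59020193-59066753 on the minus strand, and Trem2 at chr17:48485726-48491598 and Tyrobp at chr7:31198807-31202598 on the plus strand. P2ry12 lies inside the span of Med12l on the opposite strand, with 0 shared exon bases, and none of the 9 genes shares exon bases with another gene of the table.

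Because the microglial and C1q genes are described together, their promoters were searched for GAGGAA, the core of the motif bound by the macrophage transcription factor PU.1, and for TATAAA, the core of the TATA box, on both strands. RefSeq promoter sequence (GRCm38.p6, the 250 bases before the annotated start) was at hand for Cx3cr1, P2ry12, Trem2, C1qb and C1qc. GAGGAA was found in 3 of these 5 promoters, and in 7639 of 32851 promoters in all (23.3%). TATAAA was found in 0 of the 5, against 4063 of all promoters (12.4%). The 3 promoters with a match are printed 5′ to 3′ on the gene's strand to show where it lies, with the match in capitals, as GAGGAA or, on the other strand, TTCCTC. They are Trem2 (chr17:48346151-48346400, plus strand, match at position −40 from the start), C1qb (chr4:136886201-136886450, minus strand, position −30) and C1qc (chr4:136892915-136893164, minus strand, position −193).
Trem2: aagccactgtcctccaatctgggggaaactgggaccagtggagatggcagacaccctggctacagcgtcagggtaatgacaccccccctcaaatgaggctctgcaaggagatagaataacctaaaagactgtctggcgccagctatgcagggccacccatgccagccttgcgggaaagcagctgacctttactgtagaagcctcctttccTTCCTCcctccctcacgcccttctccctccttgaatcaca
C1qb: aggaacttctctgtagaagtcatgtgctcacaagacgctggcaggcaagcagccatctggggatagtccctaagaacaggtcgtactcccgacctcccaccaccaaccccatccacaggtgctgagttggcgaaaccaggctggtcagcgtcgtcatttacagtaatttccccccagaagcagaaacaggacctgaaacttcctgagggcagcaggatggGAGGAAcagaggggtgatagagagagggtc
C1qc: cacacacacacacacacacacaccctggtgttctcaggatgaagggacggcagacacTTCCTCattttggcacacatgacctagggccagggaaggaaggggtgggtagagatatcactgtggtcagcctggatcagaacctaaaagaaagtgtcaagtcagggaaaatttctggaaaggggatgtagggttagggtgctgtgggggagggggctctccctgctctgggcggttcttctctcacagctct
The matches stand on different strands and at different distances in the neighbouring C1qb and C1qc promoters. A match is a description of letters and not a measured binding site.

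Per length, the C1q genes were the highest of the 9. C1qb averaged 47.8 RPKM over the 6 libraries, C1qc 46.7 and C1qa 41.0, which placed them above 89.6%, 89.3% and 87.7% of the genes tested. They were followed by the growth factor receptor Csf1r at 35.5 RPKM and the adaptor Tyrobp at 23.7 RPKM. The fractalkine receptor Cx3cr1 averaged 18.6 RPKM, the purinergic receptor P2ry12 17.5, the lipid receptor Trem2 13.8 and the surface protein Tmem119 13.2, which was above 64.6% of the genes tested. The order was not equally firm along its length. Between C1qb and C1qc, C1qa and Csf1r, and Cx3cr1 and P2ry12 it held in 5 of 6 libraries each, and between Trem2 and Tmem119 in 4 of 6. It held in 6 of 6 libraries between C1qc and C1qa, Csf1r and Tyrobp, Tyrobp and Cx3cr1, and P2ry12 and Trem2.

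**Figure D1:**
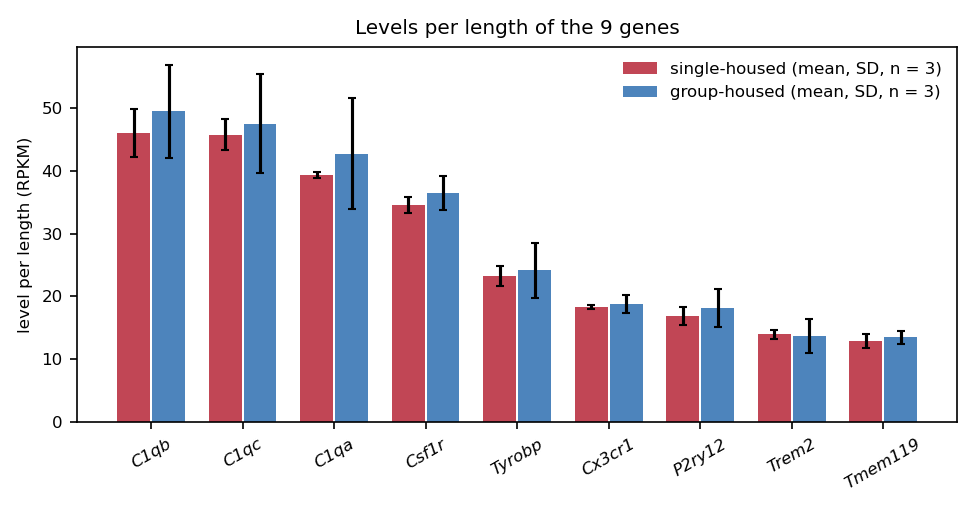
Level per length (RPKM, vertical axis from 0) of the 9 genes, ordered by their mean, with single-housed bars left of group-housed bars and error bars of 1 SD over 3 libraries. The C1q genes and Csf1r stand above the others, and single-housed and group-housed error bars overlap for each gene.

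No difference with housing was detectable in any of the 9 genes. None was called by edgeR's quasi-likelihood test at an adjusted p of 0.05, each having an adjusted p of 1.0, with 0 of 15258 genes called in all (0%). None had an unadjusted p under 0.05, a level reached by 238 genes (1.56%), and none had groups that did not overlap, against 742 genes tested (4.86%). Log2 differences ran from −0.12 to 0.03, single-housed minus group-housed, and 95% intervals over the 9 genes reached from −0.43 to 0.35, which is a ratio of 0.742 to 1.28. In bulk tissue, a change in the number of microglia and a change in RNA per microglial cell could not be told apart.

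Among the identity receptors, Cx3cr1, which binds the neuronal chemokine fractalkine, had 69.7, 67.2 and 68.5 CPM in single-housed libraries, against 76.0, 66.3 and 68.0 CPM in group-housed libraries. P2ry12, which senses nucleotides and steers microglial processes, had 35.8, 39.7 and 42.5 CPM in single-housed libraries, against 50.4, 37.9 and 38.5 CPM in group-housed libraries. In both genes the groups overlapped, and the highest value was that of group-housed replicate 1. The log2 difference was −0.034 ± 0.0740 (SE) for Cx3cr1 and −0.10 ± 0.123 for P2ry12, with 95% intervals of −0.20 to 0.13 and −0.38 to 0.18. Tmem119, a transmembrane protein used to tell microglia from other macrophages, had 29.2, 26.0 and 25.0 CPM in single-housed libraries, against 30.3, 25.9 and 27.7 CPM in group-housed libraries. Csf1r, the receptor on which microglial survival depends, had 139, 134 and 129 CPM in single-housed libraries, against 153, 135 and 135 CPM in group-housed libraries. In both of these genes single-housed replicate 1 was the second highest library and single-housed replicate 3 the lowest. The log2 difference was −0.065 ± 0.0978 for Tmem119 and −0.076 ± 0.0777 for Csf1r, with 95% intervals of −0.29 to 0.16 and −0.25 to 0.10.

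The receptor Trem2 had 14.9, 16.1 and 14.5 CPM in single-housed libraries, against 17.8, 11.9 and 14.8 CPM in group-housed libraries. Its signalling adaptor Tyrobp had 14.2, 12.7 and 12.7 CPM in single-housed libraries, against 16.1, 11.1 and 13.8 CPM in group-housed libraries. For both genes the group-housed libraries held the highest and the lowest value of the 6. Trem2 was the gene of the 9 with a higher mean in single-housed mice, 15.2 ± 0.822 CPM against 14.8 ± 2.93 CPM in group-housed mice (SD, n = 3 each), a log2 difference of 0.032 ± 0.142 (SE). Tyrobp differed by −0.051 ± 0.138, and the 95% intervals were −0.29 to 0.35 for Trem2 and −0.37 to 0.26 for Tyrobp. The RPKM of Tyrobp was above that of Trem2 in every library, by a ratio of 1.84, 1.51 and 1.68 in single-housed libraries and 1.74, 1.79 and 1.79 in group-housed libraries.

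Of the C1q genes, which encode the chains of the complement recognition molecule, C1qa varied least among single-housed and most among group-housed libraries. C1qa had 42.9, 42.0 and 42.7 CPM in single-housed libraries, against 54.4, 35.8 and 48.6 CPM in group-housed libraries. C1qb had 53.6, 46.4 and 46.6 CPM in single-housed libraries, against 60.6, 45.0 and 52.0 CPM in group-housed libraries. C1qc had 51.2, 47.4 and 46.2 CPM in single-housed libraries, against 58.9, 42.3 and 49.0 CPM in group-housed libraries. For each chain the single-housed values lay between group-housed replicates 1 and 2. The coefficient of variation of C1qa was 1.15% over the single-housed libraries, against 20.6% over the group-housed ones, where counting error alone gives 2.69%. Log2 differences were −0.12 ± 0.136 for C1qa, −0.10 ± 0.115 for C1qb and −0.053 ± 0.117 for C1qc, with 95% intervals of −0.43 to 0.19, −0.37 to 0.16 and −0.32 to 0.21.

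The chains kept nearly constant proportions while their sum moved. C1qa held 28.6%, 30.4% and 31.0% of the summed C1q RPKM in single-housed libraries, against 30.8%, 28.6% and 32.0% in group-housed libraries. C1qb held 34.3% to 36.4% in single-housed libraries, against 34.9% to 36.7% in group-housed libraries, and C1qc held 34.5% to 35.3% in the single-housed and 33.1% to 34.7% in the group-housed ones. Mean log2 CPM of the C1q genes exceeded that of the 6 identity genes by 0.396 ± 0.0455 in single-housed libraries, against 0.433 ± 0.0883 in group-housed libraries (SD, n = 3 each), so the balance between C1q and identity genes differed by less than the spread between libraries.

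**Figure D2:**
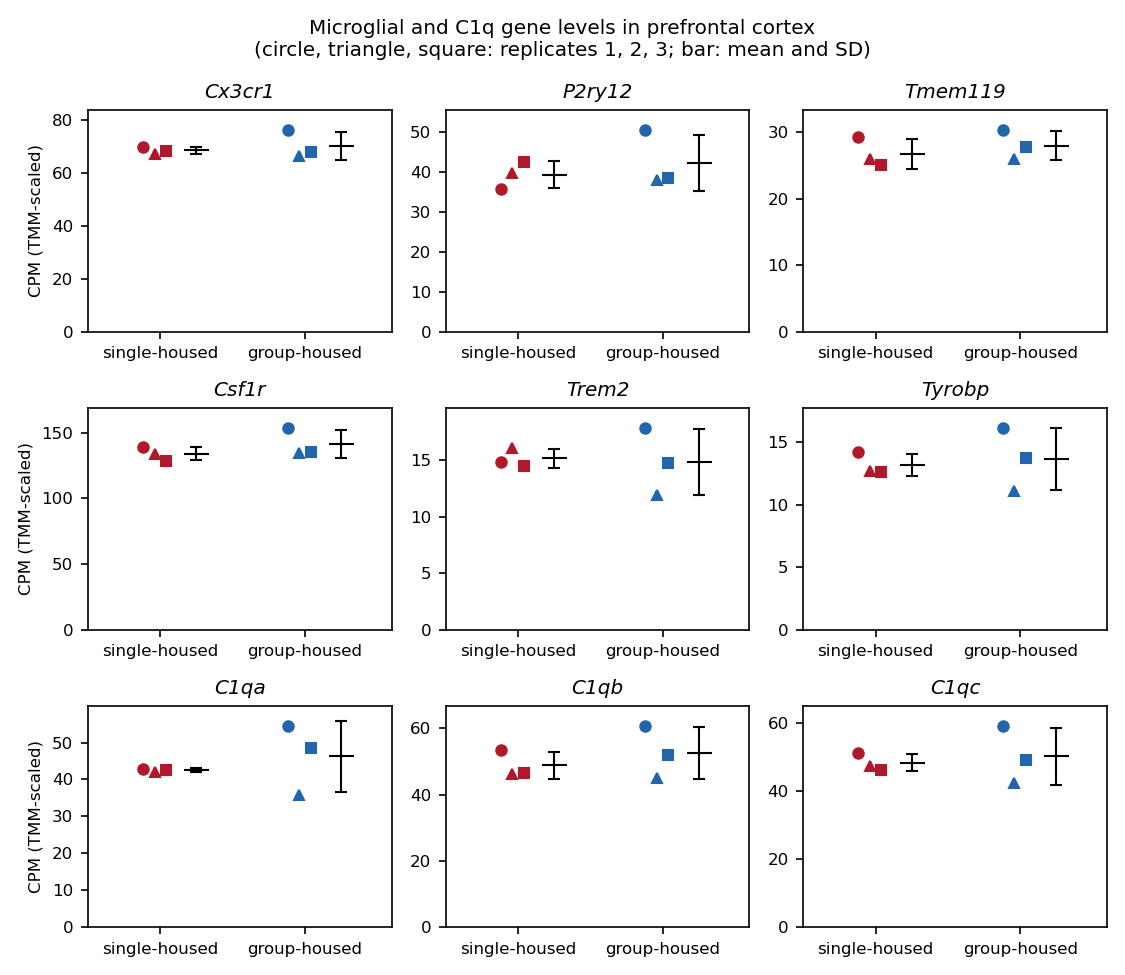
Level (CPM, vertical axes from 0) of each gene in single-housed (left, red) and group-housed (right, blue) libraries, with circle, triangle and square for replicates 1, 2 and 3 and bars for the mean and SD. The groups overlap in every panel, and group-housed replicate 1 is the highest point in 9 of 9 panels.

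**Figure D3:**
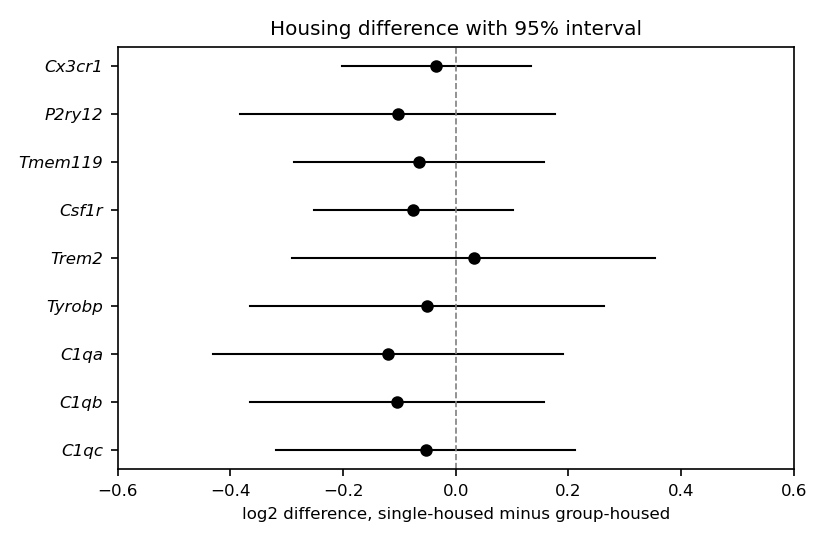
Log2 difference of each gene, single-housed minus group-housed (horizontal axis), with its 95% interval from edgeR's quasi-likelihood fit. The 9 intervals all include 0, and their lowest and highest limits are −0.43 (C1qa) and 0.35 (Trem2).

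The lower mean of 8 of the 9 genes in single-housed mice rested on 1 library. Over all genes tested 7739 were higher and 7519 lower, with a median log2 difference of 0.00147, and the median over the 9 genes was −0.07. Without group-housed replicate 1, 7 of the 9 genes were higher and 2, Tmem119 and Csf1r, lower. Trem2 then differed by 0.18, Tyrobp by 0.084, P2ry12 by 0.043 and C1qa by 0.014 on the log2 scale.

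For 8 of the 9 genes the spread was wider among group-housed libraries. The exception was Tmem119, with a coefficient of variation of 8.30% over single-housed and 7.83% over group-housed libraries. How many of all genes tested had a wider spread among group-housed libraries was not counted. The 9 genes summed to 450, 432 and 427 CPM in single-housed libraries, against 518, 411 and 448 CPM in group-housed libraries, a mean of 436 ± 12.2 CPM in single-housed mice and 459 ± 54.4 CPM in group-housed mice (SD, n = 3 each). Group-housed replicate 1 was the highest library for 9 of 9 genes, and group-housed replicate 2 the lowest for 6 of 9. P2ry12 was lowest in single-housed replicate 1, and Tmem119 and Csf1r in single-housed replicate 3. The ratio of group-housed replicate 1 to the mean of the other 5 libraries was 1.12 for Cx3cr1, 1.13 for Tmem119 and 1.14 for Csf1r, and 1.23 to 1.30 for Trem2, Tyrobp, the C1q genes and P2ry12. Across the 6 libraries the highest value was 1.15 times the lowest for Cx3cr1 and 1.52 times the lowest for C1qa.

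A list of 30 other microglial markers was likewise high in that library. Group-housed replicate 1 was the highest library for 24 of the 30 (80%), against 26.0% of all genes tested, and group-housed replicate 2 the lowest for 16 (53.3%), against 23.2%. The median ratio of group-housed replicate 1 to the other 5 libraries was 1.25 for the 9 genes, 1.20 for the other markers and 1.01 for all genes. This library had the fewest counts, the highest summed oligodendrocyte markers and the lowest summed border macrophage markers, at 26.6 CPM against 29.3 to 37.5 CPM in single-housed libraries and 29.0 to 33.6 CPM in the other group-housed libraries. Their part in the higher microglial values was not tested. Summed oligodendrocyte markers were 4215, 4014 and 1995 CPM in single-housed replicates 1 to 3, where the 9 genes summed to 450, 432 and 427 CPM. In group-housed replicates 1 to 3 these markers summed to 5391, 1968 and 3109 CPM, and the 9 genes to 518, 411 and 448 CPM.

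**Figure D4:**
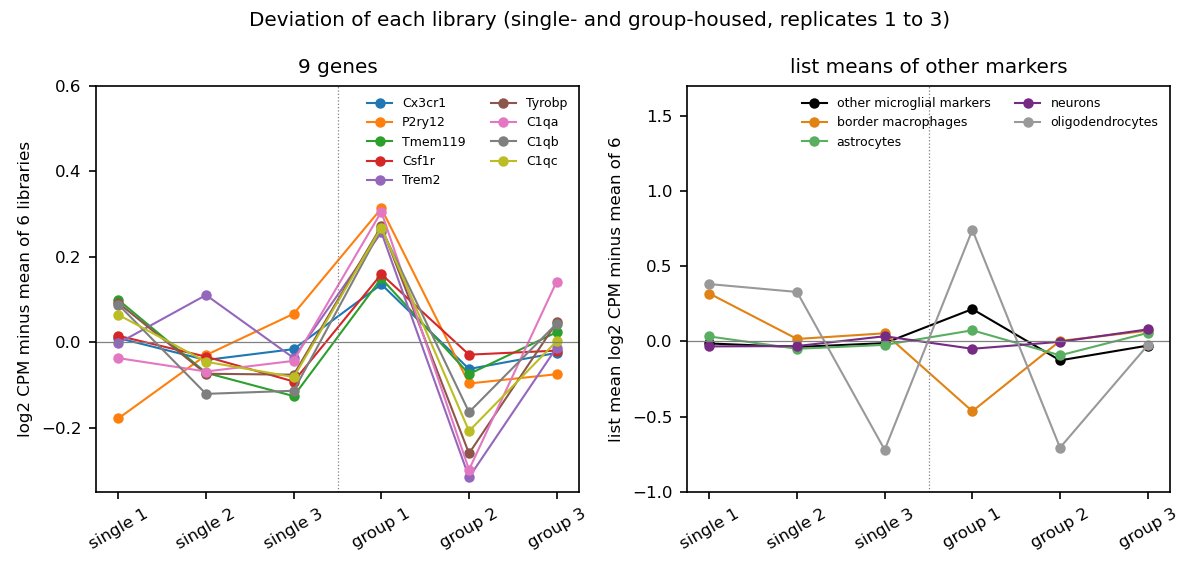
Log2 CPM minus its mean over the 6 libraries (vertical axes), for the 9 genes (left) and for list means of other markers (right; the vertical scales differ), with single-housed libraries left of the dotted line. Each of the 9 genes peaks in group-housed replicate 1, where border macrophage markers are lowest and oligodendrocyte markers highest.

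As a description over 6 libraries, which also differ in depth and in oligodendrocyte markers, the 9 genes varied together. All 36 pairs had a positive Pearson correlation of log2 CPM, with a median of 0.851 and a range from 0.300 (P2ry12 with Tmem119) to 0.986 (Tyrobp with C1qc). C1qc was closest to the mean of the other 8 genes (0.987) and P2ry12 farthest (0.640). Without group-housed replicate 1, 30 of the 36 pairs were positive with a median of 0.601, and without both group-housed replicates 1 and 2, 21 were positive with a median of 0.295.

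The genes most like the mean of the 9, among 13774 ranked, were Kctd11 (Pearson correlation 0.998 over 6 libraries), Lgi4 (0.998), Npepl1 (0.996), Ppap2b (0.992), Atp1b3 (0.991), Slc37a2 (0.990), Cox6a1 (0.989), Snhg6 (0.988), Efna2 (0.988) and Rapgef4 (0.987). None of these 10 is on the microglial lists. The 37 ranked genes of those lists had a median correlation of 0.770, against 0.0468 for all ranked genes, and 16 of them stood among the 1377 genes of the top 10%. The first was Ly86, at rank 71 (0.963), followed by the lysosomal membrane gene Laptm5, at rank 195 (0.941). Negative correlations, picked out after the values were seen, were those of the sialic acid receptor Cd33 (−0.170), the leukocyte phosphatase Ptprc (−0.448), the phagocytic receptor Mertk (−0.408) and the transcription factor Maf (−0.587).

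None of the ligands of these receptors was called by edgeR. Of 5 genes tested, 1 was higher and 4 were lower in single-housed mice, and their median log2 difference was −0.06. The CSF1R ligand Il34 averaged 79.1 ± 4.51 CPM in single-housed libraries, against 75.5 ± 4.51 CPM in group-housed libraries, and the other CSF1R ligand, Csf1, 19.4 ± 0.408 CPM in single-housed mice and 21.1 ± 3.68 CPM in group-housed mice (SD, n = 3 each). Per length Il34 was at 42.0 RPKM and Csf1 at 4.57 RPKM. Fractalkine, Cx3cl1, averaged 1183 ± 100 CPM in single-housed libraries, against 1236 ± 97.0 CPM in group-housed libraries, and the TREM2 ligand Apoe 1134 ± 19.3 CPM in single-housed mice and 1198 ± 190 CPM in group-housed mice. Log2 differences were 0.07 ± 0.0761 (SE) for Il34, −0.12 ± 0.125 for Csf1, −0.06 ± 0.0919 for Cx3cl1 and −0.08 ± 0.112 for Apoe. The groups overlapped for each of the 5 ligands, and without group-housed replicate 1, 4 were higher and 1 lower.

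Of the 30 other microglial markers, 9 were higher and 21 lower after single housing, with 0 called, 0 at an unadjusted p under 0.05, and a median log2 difference of −0.04 (range −0.22 to 0.10). As with the 9 genes, the direction turned without group-housed replicate 1, with 22 higher and 8 lower (median 0.063). The Fc receptor Fcgr3 averaged 10.7 ± 0.472 CPM in single-housed libraries, against 12.1 ± 1.02 CPM in group-housed libraries, a log2 difference of −0.17 ± 0.102 (SE). Of 16 tested genes of 20 listed for the disease-associated microglial state, 8 were higher and 8 lower, with 0 called, and without group-housed replicate 1, 11 of these were higher and 5 lower. Gpnmb, a glycoprotein of phagocytic cells, averaged 3.03 ± 0.377 CPM in single-housed libraries, against 2.30 ± 0.812 CPM in group-housed libraries. Cst7, Clec7a, Itgax and Lgals3, also listed for that state, were too low to test. Cst7 had 6, 4 and 4 counts in single-housed libraries, against 3, 4 and 5 in group-housed libraries. In the same order, Clec7a had 5, 16 and 6 against 5, 1 and 3. Itgax had 4, 12 and 6 against 5, 7 and 7, and Lgals3 8, 9 and 4 against 7, 2 and 6.

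Of 12 inflammatory cytokines and related genes listed, 6 had too few counts to test and 6 were tested, with 1 higher, 5 lower and 0 called (3 and 3 without group-housed replicate 1). The most abundant was Il18, picked out after its values were seen, which averaged 12.1 ± 0.598 CPM in single-housed libraries, against 12.9 ± 2.83 CPM in group-housed libraries. Tnf and Il6, which encode classical inflammatory cytokines, were not tested. Tnf had 1, 1 and 2 counts in single-housed libraries, against 3, 0 and 1 in group-housed libraries, and Il6 had 0, 1 and 3 counts in single-housed mice against 0, 3 and 2 in group-housed mice. Il1b averaged 0.291 ± 0.0336 CPM in single-housed libraries, against 0.410 ± 0.0712 CPM in group-housed libraries. Its groups did not overlap, as for 4.86% of all genes tested. At this low level its log2 difference was −0.48 ± 0.312 (SE), with an unadjusted p of 0.18 in edgeR's quasi-likelihood test.

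Some macrophage regulators and signalling genes had an unadjusted p under 0.05, but no gene in the table passed the adjusted edgeR threshold. Of 9 macrophage transcription factors, 3 were higher and 6 lower (5 and 4 without group-housed replicate 1), and 2 had an unadjusted p under 0.05, against 1.56% of all genes tested. Among them was Cebpa, with 6.85 ± 0.411 CPM in single-housed libraries, against 8.41 ± 0.954 CPM in group-housed libraries (log2 difference −0.30 ± 0.121), whose groups did not overlap. The gene of PU.1, listed as Sfpi1, averaged 3.50 ± 0.221 CPM in single-housed libraries, against 3.88 ± 0.923 CPM in group-housed libraries, and Irf8, another regulator of microglial development, 5.45 ± 0.973 CPM in single-housed mice and 5.02 ± 0.908 CPM in group-housed mice.

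Of 15 genes of TREM2 and TYROBP signalling, 7 were higher and 8 lower (median −0.01), with 7 and 8 also without group-housed replicate 1. Of the 15, 3 had an unadjusted p under 0.05 (1.56% of all genes tested) and 4 had groups that did not overlap (4.86% of all genes tested). The kinase Lyn averaged 6.43 ± 0.590 CPM in single-housed libraries, against 7.95 ± 0.186 CPM in group-housed libraries, a log2 difference of −0.31 ± 0.112. The surface receptor Cd84 differed by −0.42 ± 0.179, and the adaptor Blnk, picked out after its values were seen, by −0.21 ± 0.0882. The phospholipase Plcg2 went the other way, with 5.11 ± 0.478 CPM in single-housed libraries, against 4.36 ± 0.274 CPM in group-housed libraries (log2 difference 0.23 ± 0.130). The kinase Syk, which docks on phosphorylated TYROBP, averaged 6.09 ± 0.868 CPM in single-housed libraries, against 6.80 ± 1.08 CPM in group-housed libraries, and its groups overlapped.

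Per length, the tested complement enzymes and components lay below the C1q genes, and none was called. They averaged 0.0674 RPKM (C3) to 7.29 RPKM (Cfp, picked out after its values were seen). The protease genes C1ra and C1s, whose products join C1q in the C1 complex, averaged 2.36 ± 0.222 and 1.02 ± 0.253 CPM in single-housed libraries, against 2.44 ± 0.282 and 1.24 ± 0.257 CPM in group-housed libraries. C3, the central component, averaged 0.351 ± 0.0334 CPM in single-housed libraries, against 0.340 ± 0.0312 CPM in group-housed libraries. C2, a part of the classical convertase, averaged 1.81 ± 0.407 CPM in single-housed libraries, against 1.39 ± 0.472 CPM in group-housed libraries. C4b averaged 11.4 ± 2.42 CPM in single-housed mice and 9.82 ± 1.64 CPM in group-housed mice, and C4a 2.05 ± 0.237 CPM in single-housed mice and 2.44 ± 0.200 CPM in group-housed mice. Both values are uncertain, because C4a and C4b are near-identical copies whose reads the counting could have split or dropped. Of 11 tested enzymes and components of 17 listed, 6 were higher and 5 lower (median 0.04), with 6 and 5 also without group-housed replicate 1. C6, C9 and Cfd had 0 counts in all 6 libraries.

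Among complement receptors, 9 of 10 were tested, with 3 higher and 6 lower (median −0.08), and with 3 and 6 also without group-housed replicate 1. The C3 receptor subunits Itgam and Itgb2, which microglia use to take up tagged material, averaged 21.2 ± 1.07 and 5.70 ± 0.927 CPM in single-housed libraries, against 21.5 ± 2.08 and 6.51 ± 0.617 CPM in group-housed libraries. C3ar1, the receptor of C3a, averaged 2.11 ± 0.101 CPM in single-housed libraries, against 2.58 ± 0.0801 CPM in group-housed libraries, with groups that did not overlap (log2 difference −0.29 ± 0.146). Of 12 tested regulators of 14 listed, 9 were higher and 3 lower (median 0.06), against 10 and 2 without group-housed replicate 1. Cd55, an inhibitor of the convertases picked out after its values were seen, averaged 5.03 ± 0.371 CPM in single-housed mice and 4.41 ± 0.372 CPM in group-housed mice without overlap (log2 difference 0.19 ± 0.130).

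Other genes with a C1q domain, which are made by neurons or other cells, were also not called. Of 10 tested, 3 were higher and 7 lower (5 and 5 without group-housed replicate 1), and 3 had an unadjusted p under 0.05, against 1.56% of all genes tested. C1qtnf4 averaged 118 ± 4.62 CPM in single-housed libraries, against 144 ± 16.7 CPM in group-housed libraries without overlap (log2 difference −0.28 ± 0.0929). The synaptic organizer Cbln2 averaged 60.2 ± 8.79 CPM in single-housed libraries, against 75.1 ± 8.09 CPM in group-housed libraries (−0.32 ± 0.118). Cbln3, picked out after its values were seen, averaged 0.511 ± 0.0993 CPM in single-housed mice and 1.23 ± 1.05 CPM in group-housed mice (−1.28 ± 0.560). Without group-housed replicate 2 the difference of Cbln3 was −0.34.

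Markers of other macrophages and of the blood cells that cortex could hold were not called or not tested. Of 10 border macrophage markers 8 were tested, and all 8 had a higher mean in single-housed libraries (median 0.20), with 0 called and 0 at an unadjusted p under 0.05. Without group-housed replicate 1, 5 were higher and 3 lower (median 0.061). The scavenger receptor Stab1, picked out after its values were seen, held most of the summed CPM of the list. It had 21.7 ± 3.31 CPM in single-housed libraries, against 20.6 ± 2.13 CPM in group-housed libraries. Stab1 is counted over 7995 bases, and per length it averaged 2.64 RPKM. The scavenger receptor Cd163 averaged 2.0 ± 0.653 CPM in single-housed libraries, against 1.43 ± 0.218 CPM in group-housed libraries, and the mannose receptor Mrc1 3.81 ± 0.365 CPM in single-housed mice and 3.29 ± 0.718 CPM in group-housed mice. None of 13 blood leukocyte markers passed the filter. They summed to 0.568 to 0.702 CPM in single-housed libraries, against 0.622 to 0.751 CPM in group-housed libraries, with Ccr2 at 8, 6 and 4 counts in single-housed libraries against 2, 4 and 5 in group-housed libraries, and Camp at 0 in all.

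**Figure D5:**
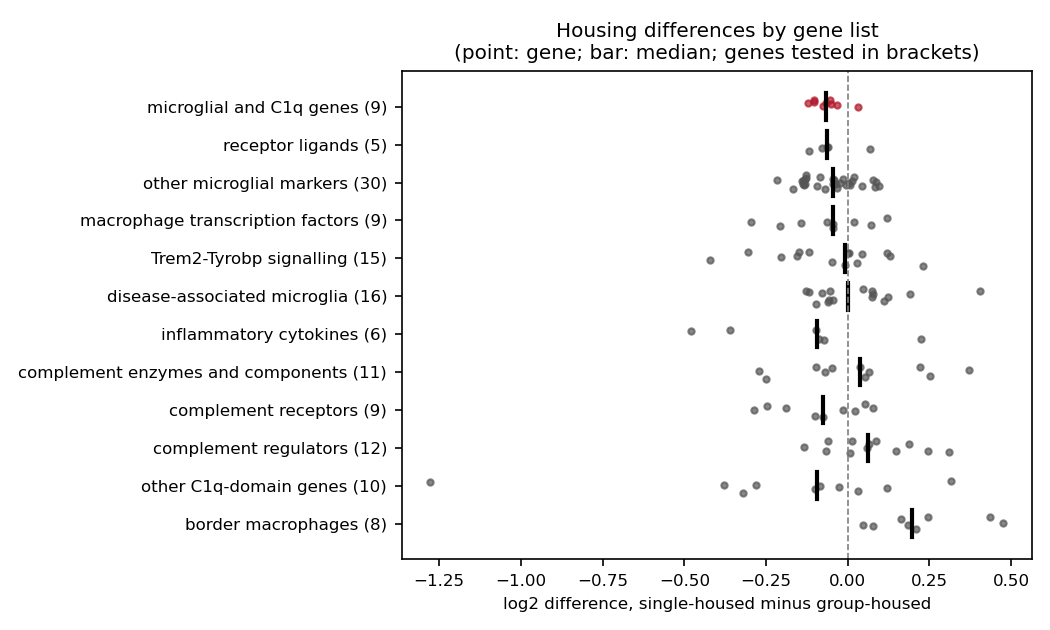
Log2 difference, single-housed minus group-housed (horizontal axis), of each tested gene (points) by list, with a bar at each list's median. The 9 genes lie between −0.12 and 0.03, and the border macrophage markers all lie above 0, with a median of 0.20.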

How the data were processed

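Per the labels' protocols, RNA was isolated from prefrontal cortex with a column kit and sequencing libraries were made with a stranded kit for polyadenylated RNA. The submitters' processing notes name FastQC, STAR, featureCounts and the build mm9. Versions, annotation and the strand setting of the counting were not given in the sources. The authors deposited raw counts per gene, with no normalization, and each gene's exon length. Total counts were 25858355 to 33428512 per library, which sets the counting error.

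Counts were tested with edgeR 4.0.16 in R 4.3.3 (quasi-likelihood F-test, TMM, filterByExpr at a minimum count of 10 and a minimum total of 15, Benjamini-Hochberg adjustment over 15258 genes, threshold 0.05). The common biological coefficient of variation was 11.8%, and the correlation of log2 CPM between libraries was 0.987 to 0.995 (genes are not replicates). Standard errors were derived from the F statistic. A log2 CPM used a prior count of 2, and likeness was ranked among tested genes with a mean CPM of at least 1. The script was checked on simulated data. Alternatives were DESeq2 1.42.0 (its test, and its size factors in edgeR), limma-voom (limma 3.58.1), other filters, each library left out, a replicate block, and striatal and oligodendrocyte covariates, the last added, like the list counts without group-housed replicate 1, after seeing the data.

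Samples were grouped by the housing label. The 9 genes and all lists were chosen with earlier results of these data known. Beside the 9 genes, the text names the 2 genes of smallest p in a list, 25 genes fixed by name and the 10 most alike, with other genes picked out after their values were seen marked as such. A few of these genes are not reported here. Spi1 was listed under its older symbol Sfpi1. Promoters are from RefSeq in GRCm38.p6, a build not mixed with the mm9 coordinates.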

Additional observations from a re-analysis of the deposited data

How the results depend on the processing

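None of the 9 genes was called under any alternative run, and the lowest adjusted p among them was 0.875. Of 135 gene and setting pairs, 121 kept their direction and 14 did not. Whether the replicate numbers pair the samples is not known. Same-numbered deviations correlated at 0.271, −0.318 and 0.170, and not every library correlated best with its own number. With 3 libraries per group, which also differ in striatal and oligodendrocyte markers, these correlations cannot decide it. With the replicate block, 0 genes were called and 8 of the 9 were lower, and Ptprc moved to 0.0018. Over all genes, 8 were called by the DESeq2 test, 4 without the 3 libraries of high striatal markers, 2 with the oligodendrocyte covariate, and 0 to 1 when leaving out each library (1 each for group-housed replicates 1 and 2). The cause was not tested. The count of the 9 genes lower in single-housed libraries was 3 without the high-striatal libraries, and 2 (without group-housed replicate 1) to 9 when leaving out each library.

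Leaving out each library, log2 differences that changed sign ran from −0.073 to 0.029 for Cx3cr1, −0.17 to 0.043 for P2ry12, −0.10 to 0.18 for Trem2, −0.18 to 0.084 for Tyrobp, −0.28 to 0.014 for C1qa, −0.20 to 0.012 for C1qb and −0.16 to 0.081 for C1qc, each lowest without group-housed replicate 2 and highest without group-housed replicate 1. They ran from −0.21 to 0.031 for Csf1, −0.12 to 0.0100 for Cx3cl1, −0.20 to 0.027 for Apoe, −0.27 to 0.050 for Aif1, −0.085 to 0.10 for Ptprc, −0.012 to 0.26 for Irf8, −0.11 to 0.054 for C1ra, −0.028 to 0.12 for C3, −0.062 to 0.068 for Itgam, −0.26 to 0.046 for Il18 and −0.053 to 0.17 for Stab1. With the striatum covariate, Trem2 was at −0.040, Ptprc at 0.027 and Irf8 at −0.052. Without the 3 high-striatal libraries, which leaves 1 single-housed library whose spread is taken from the others, Cx3cr1 was at 0.028, P2ry12 at 0.15, Tyrobp at 0.024, C1qa at 0.019 and C1qc at 0.018, Csf1 at 0.0038, Aif1 at 0.11, Irf8 at −0.081, C4b at −0.053, Itgam at 0.13, Sez6 at −0.038, Cd163 at −0.20, Cbr2 at −0.040 and Stab1 at −0.015. Spearman correlation over 6 libraries tied many genes at its maximum, so it gave no top 10 to compare. The 95% intervals of the 9 genes give the range of differences these 6 libraries leave possible for each gene. They are not adjusted for the number of genes tested.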
